A study of Mus musculus with 22 samples.

Results

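The response of the mouse brain to bacterial lipopolysaccharide (LPS) was examined in aged male C57BL/6J mice with an earlier chemical exposure that models Gulf War illness. All 8 libraries from exposed mice treated with vehicle were used, 4 from the group GWVehLPS (LPS) and 4 from the group GWVeh (sterile PBS), out of 22 libraries in the series. At 10 weeks of age these mice had received daily intraperitoneal injections of pyridostigmine bromide (0.7 mg/kg), which blocks acetylcholinesterase, and permethrin (200 mg/kg), a pyrethroid insecticide, for 10 days. They were then kept to 17.5 months. Both groups were given the cannabidiol vehicle (5% Tween 80 in PBS) on the schedule of the drug arm, daily for 28 days and every 2 days for 2 more weeks. They were then injected once, into the peritoneum, with E. coli LPS (0.33 mg/kg) or with PBS, and whole brains were removed 24 h later. Each library is poly(A) RNA from a whole brain, so that neurons, glia and vessels are measured together. In such bulk RNA, a gain in cells of a type and a gain in RNA per cell cannot be told apart. The arms used for comparison were unexposed vehicle mice (CtrlVeh and CtrlVehLPS, 3 each) and exposed mice given 30 mg/kg cannabidiol (GWCBD30 and GWCBD30LPS, 4 each), with the same LPS and PBS injections.

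LPS is sensed by the receptor TLR4 with its partners MD-2 and CD14, which signal through NF-kB to cytokine genes and through another branch to interferon genes. After a peripheral injection little LPS passes into the brain, and the vessel wall is among the first places to answer: endothelial cells raise adhesion molecules and relay the signal inwards. Microglia, the resident macrophages of the brain, carry the Toll-like, Fc and complement receptors that respond to it, and the rise of adrenal glucocorticoids acts on brain cells at the same time.

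The 8 libraries held 18765098 to 28779951 counts, with a median of 22381377, which places a floor of 3 counts at 0.105 to 0.160 CPM, the unit of level used here (a gene's counts scaled to a common library size). Mitochondrially encoded genes took 3.93% to 5.04% of the counts. Olfactory bulb markers differed among the LPS brains: their mean log2 CPM over 24 genes was 3.36 and 3.66 in GWVehLPS replicates 2 and 3, against 2.67 and 2.52 in replicates 1 and 4 and 2.74 to 2.83 in the 4 GWVeh libraries. The summed level of these markers ran from 718 to 847 CPM with LPS and from 736 to 767 CPM without it. Counts of changed genes are therefore also given without replicates 2 and 3, a choice made with these marker levels known. In the unexposed arm all 3 CtrlVehLPS libraries had higher bulb markers (3.51 to 4.16) than the CtrlVeh libraries (2.55 to 2.67). CtrlVehLPS replicate 1 also had 1027 CPM of cerebellar markers, against 2927 and 3032 CPM in the other two, and 389 CPM of pancreatic enzyme genes, against at most 5.17 CPM in any other library. In the cannabidiol arm GWCBD30LPS replicate 4 had the highest bulb markers (3.43).

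Of 20026 genes tested, 166 were higher with LPS (0.829%) and 22 were lower (0.110%), 188 in all (0.939%), at an adjusted p under 0.05 in edgeR's quasi-likelihood test. Of the 166 higher genes, 163 were protein-coding, 46 had at least a 2-fold difference and the median log2 fold change was 0.78. In 158 of them every LPS library lay above every PBS library, which was the case for 700 of all genes tested (3.50%). The falls were smaller, with a median of -0.36 over the 22 genes, and in 19 of them the groups did not overlap, against 475 of all genes (2.37%). Over all genes tested the median log2 fold change was -0.0047. Over the 166 genes, which were chosen for this difference, the median log2 ratio to the GWVeh mean was 0.73, 0.72, 0.72 and 0.60 in replicates 1 to 4. Without GWVehLPS replicates 2 and 3, 115 genes were higher and 23 lower, and 94 of the higher and 7 of the lower genes were among those called with all libraries. Leaving out 1 library at a time, the number of rises ran from 111 to 165. The number of falls was 38, 9, 8 and 14 without GWVeh replicates 1 to 4, and 36 and 13 without GWVehLPS replicates 2 and 4. Of the 94 called genes that are named here, 50 kept their call when each of the 8 libraries was left out in turn. Sele was tested in 5 such fits and kept its call in them. With few counts in PBS brains, it passes the filter on low counts only through libraries where it is high. Its kept call is therefore no support for the rise. Without GWVehLPS replicates 2 and 3, 33 of the 94 did not pass, and 25 did not when only the 8 libraries compared entered the fit. The response was made up mostly of rises, as the plot of log2 fold change against expression shows.

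**Figure D1:**
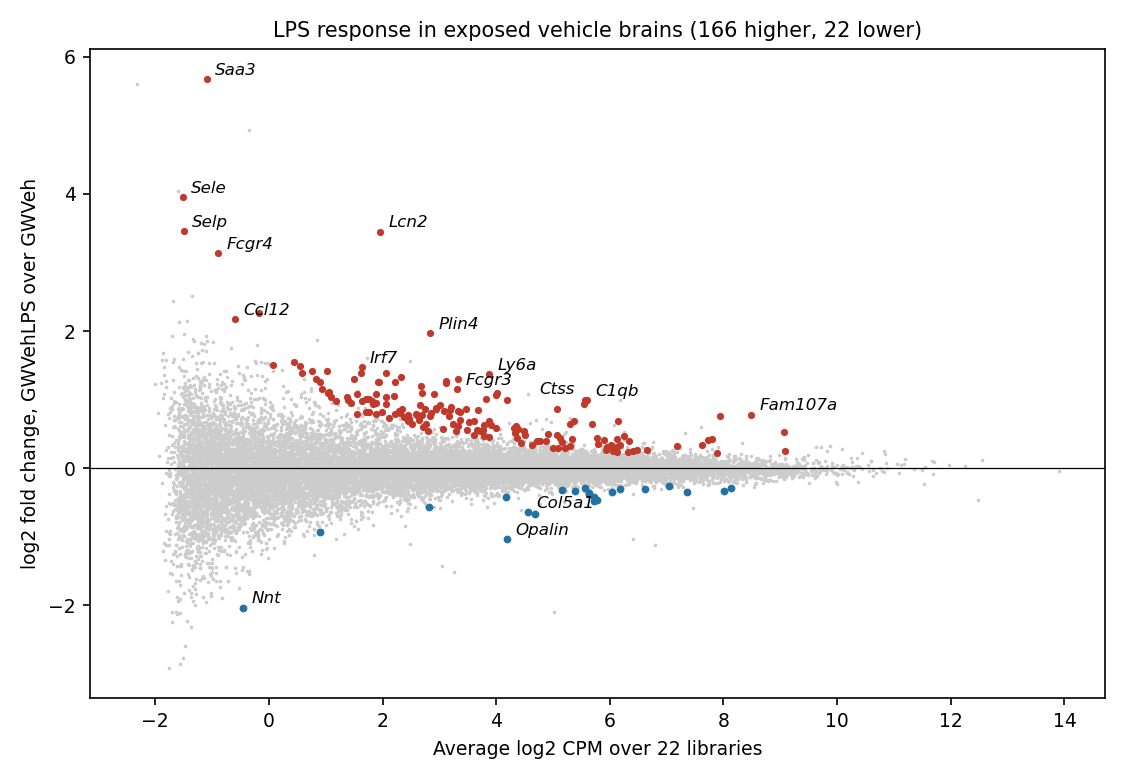
Log2 fold change of GWVehLPS over GWVeh (vertical axis) against average log2 CPM (horizontal axis) for the 20026 genes tested, 1 point per gene. Red points are the 166 genes higher and blue points the 22 genes lower with LPS at an adjusted p under 0.05, grey points the rest, and a selection of the called genes carry their symbols. Red points outnumber blue points and reach further from 0.

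Of 43 genes for LPS sensing and NF-kB, 4 rose (9.30%, against 0.829% of all genes tested) and 0 fell (median 0.19), and 1 rose without GWVehLPS replicates 2 and 3. Ly86 (MD-1), the partner of the TLR4 relative RP105, had 5.32, 6.72, 6.09 and 5.07 CPM in GWVeh and 13.7, 15.3, 15.8 and 9.92 CPM in GWVehLPS. All 4 LPS brains exceeded all 4 PBS brains, with replicate 4 the lowest of them, and the log2 fold change was 1.24 ± 0.14 (SE, adjusted p = 1.54e-06). The nucleic acid receptor genes Tlr13 (1.1 ± 0.25, adjusted p = 0.02) and Tlr7 (0.98 ± 0.25, adjusted p = 0.0466) and the transcription factor gene Cebpd (0.79 ± 0.18, adjusted p = 0.0178) were the other members that rose. Tlr4 was at 1.14 ± 0.375 CPM in GWVeh and 2.14 ± 0.590 CPM in GWVehLPS (SD, n = 4 each), with libraries that overlapped and an adjusted p of 0.139. Cd14, the co-receptor that hands LPS to TLR4, did not pass either (0.45 ± 0.22, adjusted p = 0.461), and Lbp, the serum protein that carries LPS, had 0.78 ± 0.22 (adjusted p = 0.0907). Leaving out each of the 8 libraries in turn, Ly86 kept its call, while that of Tlr7 was lost without any 1 library and those of Tlr13 and Cebpd without some (adjusted p up to 0.147, 0.0968 and 0.0875).

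Several classical cytokines were near or below the limit of detection in whole brain. Of 41 cytokine and chemokine genes, 20 were too low to be tested. Il1b had 20 counts in the 4 GWVeh libraries together and 24 in the 4 GWVehLPS libraries, Tnf had 3 and 11, and Il6 had 6 and 1. Other untested members had higher totals with LPS: Ccl2 had 10 counts in GWVeh and 39 in GWVehLPS, Ccl7 had 8 and 35, Cxcl1 had 5 and 20, and Il1rn had 5 and 18. These 4 were chosen after their values were seen, and single libraries held up to 21 counts of Ccl2 and 18 of Ccl7. Of the 21 tested, 2 rose (9.52%, against 0.829% of all genes tested) and 1 fell (4.76%, against 0.110%). Ccl12, a chemokine for monocytes, had 0.505, 0.1003, 0.0828 and 0.306 CPM in GWVeh and 1.29, 0.747, 1.01 and 1.55 CPM in GWVehLPS, with no overlap (2.18 ± 0.51, adjusted p = 0.0215). Tgfb1, which encodes the growth factor that maintains microglia, rose by 0.78 ± 0.17 (adjusted p = 0.0137), and its 4 LPS libraries lay within 8.17 to 8.41 CPM. Il33, an alarmin of the interleukin-1 family that oligodendrocytes and astrocytes store, was the member that fell, from 70.6 ± 3.57 to 55.6 ± 8.80 CPM (adjusted p = 0.0215). Among 44 cytokine receptor and JAK-STAT genes 4 rose (9.09%) and 0 fell. Among the rises were Csf2rb, the shared chain of the GM-CSF and interleukin-3 receptors (1.41 ± 0.23), Csf3r, the receptor for G-CSF (0.87 ± 0.15) and Tgfbr2, a receptor chain for TGF-beta (0.45 ± 0.10). Osmr, the oncostatin M receptor, stood at 0.79 ± 0.21 and did not pass (adjusted p = 0.0698). Calls that were lost without at least 1 library were those of Ccl12, Tgfb1, Il33 and Tgfbr2 (adjusted p up to 0.116, 0.0763, 0.125 and 0.0685).

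Adhesion molecules of activated endothelium were among the rises. Icam1, the ligand for leukocyte integrins, had 2.43, 1.71, 1.86 and 1.92 CPM in GWVeh and 4.58, 5.31, 5.51 and 4.21 CPM in GWVehLPS. The lowest LPS library was 1.73 times the highest PBS library, and the log2 fold change was 1.31 ± 0.21 (adjusted p = 0.000317). The selectins Sele and Selp, which slow leukocytes on the vessel wall and lie side by side on chromosome 1 (GRCm38 chr1:164048234-164057677 and chr1:164115264-164150026), were close to the floor in PBS brains: Sele had 5 counts over GWVeh and 87 over GWVehLPS, and Selp had 5 and 62 (adjusted p = 0.00287 and 0.00697). Nos3, the endothelial nitric oxide synthase, rose by 0.60 ± 0.14. In all, 4 of 27 endothelial activation genes rose (14.8%, against 0.829% of all genes tested) and 0 fell (median 0.40), and 2 rose without GWVehLPS replicates 2 and 3. Vcam1 had 0.40 ± 0.11 and Vwf 1.09 ± 0.29, with separate groups in both and no call (adjusted p = 0.0666 and 0.106). For Nos3 the call ended on leaving out either of GWVeh replicates 1 and 4 or either of GWVehLPS replicates 3 and 4 (adjusted p up to 0.103).

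Without replicates 2 and 3, 6 of 38 vessel identity genes rose and 1 fell, and Podxl and Slco1a4 were not called. With all libraries 6 rose (15.8%, against 0.829% of all genes tested) and 0 fell (median 0.25). Of these, 3 encode Ly6 surface proteins of brain endothelium, and their genes lie in a cluster on chromosome 15: Ly6e (GRCm38 chr15:74955051-74959905), Ly6a (chr15:74994877-74998031) and Ly6c1 (chr15:75044018-75048830). Ly6c1 had 16.0, 10.4, 11.9 and 10.1 CPM in GWVeh and 26.7, 23.9, 21.6 and 31.2 CPM in GWVehLPS, the highest in replicate 4, for a log2 fold change of 1.09 ± 0.14. Ly6a rose by 1.37 ± 0.19 and the more abundant Ly6e by 0.33 ± 0.06; Ly6a did not pass with only the 8 libraries in the fit (adjusted p = 0.0909). Ly6c1 shares much of its sequence with Ly6c2, so its count may hold reads of that copy. Pecam1, the junctional adhesion molecule of endothelium, rose from 10.7 ± 1.24 to 17.3 ± 2.86 CPM (adjusted p = 0.00408). Podxl, a sialomucin of the luminal surface (0.40 ± 0.10), and Slco1a4, an organic anion transporter of the blood-brain barrier (0.37 ± 0.09), completed the group, and Slc2a1, its glucose transporter, did not pass (0.31 ± 0.09, adjusted p = 0.0998). Podxl and Slco1a4 lost their calls without single libraries of either group (adjusted p up to 0.15 and 0.18). Outside the lists, Adgrl4, an adhesion G protein-coupled receptor of endothelial cells, was among the 10 rises with the smallest p. It had 7.02, 7.27, 7.53 and 6.86 CPM in GWVeh and 11, 15.7, 12.2 and 14.7 CPM in GWVehLPS, so that the PBS brains were nearly equal and every LPS brain was higher (0.90 ± 0.12, adjusted p = 1.86e-05).

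Acute-phase and antimicrobial genes included some of the largest rises. Lcn2, lipocalin 2, binds the siderophores with which bacteria collect iron, and in the brain it is made by vessel cells and astrocytes during inflammation. Its level was 3.12, 0.201, 0.704 and 0.218 CPM in GWVeh and 17.3, 4.13, 8.54 and 16.7 CPM in GWVehLPS. GWVeh replicate 1 stood above the other PBS brains, and LPS replicates 1 and 4 were about equal and the highest (3.45 ± 0.74, adjusted p = 0.0313). Lcn2 no longer passed when any of GWVeh replicates 2 to 4 or either of GWVehLPS replicates 1 and 4 was left out (adjusted p up to 0.116). Saa3, a serum amyloid A protein made outside the liver, had 2 counts over the 4 GWVeh libraries and 141 over the 4 GWVehLPS libraries, a ratio per effective library size of 66.2 with a 95% exact interval of 17.98 to 552 that covers counting error only. Its LPS libraries ran from 0.590 CPM in replicate 2 to 2.86 CPM in replicate 1. The related Saa1 had 0 counts in GWVeh and 15 in GWVehLPS and was too low to be tested, and it is given here after its values were seen. The ferroxidase ceruloplasmin, Cp, rose from 12.3 ± 1.41 to 18.01 ± 1.26 CPM (adjusted p = 0.0543 without GWVeh replicate 4), and cathepsin S, Ctss, is described with the lysosomal genes. The list had 4 of 23 members higher (17.4%, against 0.829% of all genes tested) and 0 lower (median 0.55), and 5 higher without replicates 2 and 3. Pglyrp1, a protein that binds bacterial peptidoglycan, was outside the lists and rose by 1.39 ± 0.19, with 3.53, 2.66, 3.02 and 2.18 CPM in GWVeh and 8.42, 6.02, 6.75 and 8.74 CPM in GWVehLPS. Serpina3n, a protease inhibitor of reactive astrocytes, was higher in every LPS library but missed the threshold (0.68 ± 0.17, adjusted p = 0.0776).

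**Figure D2:**
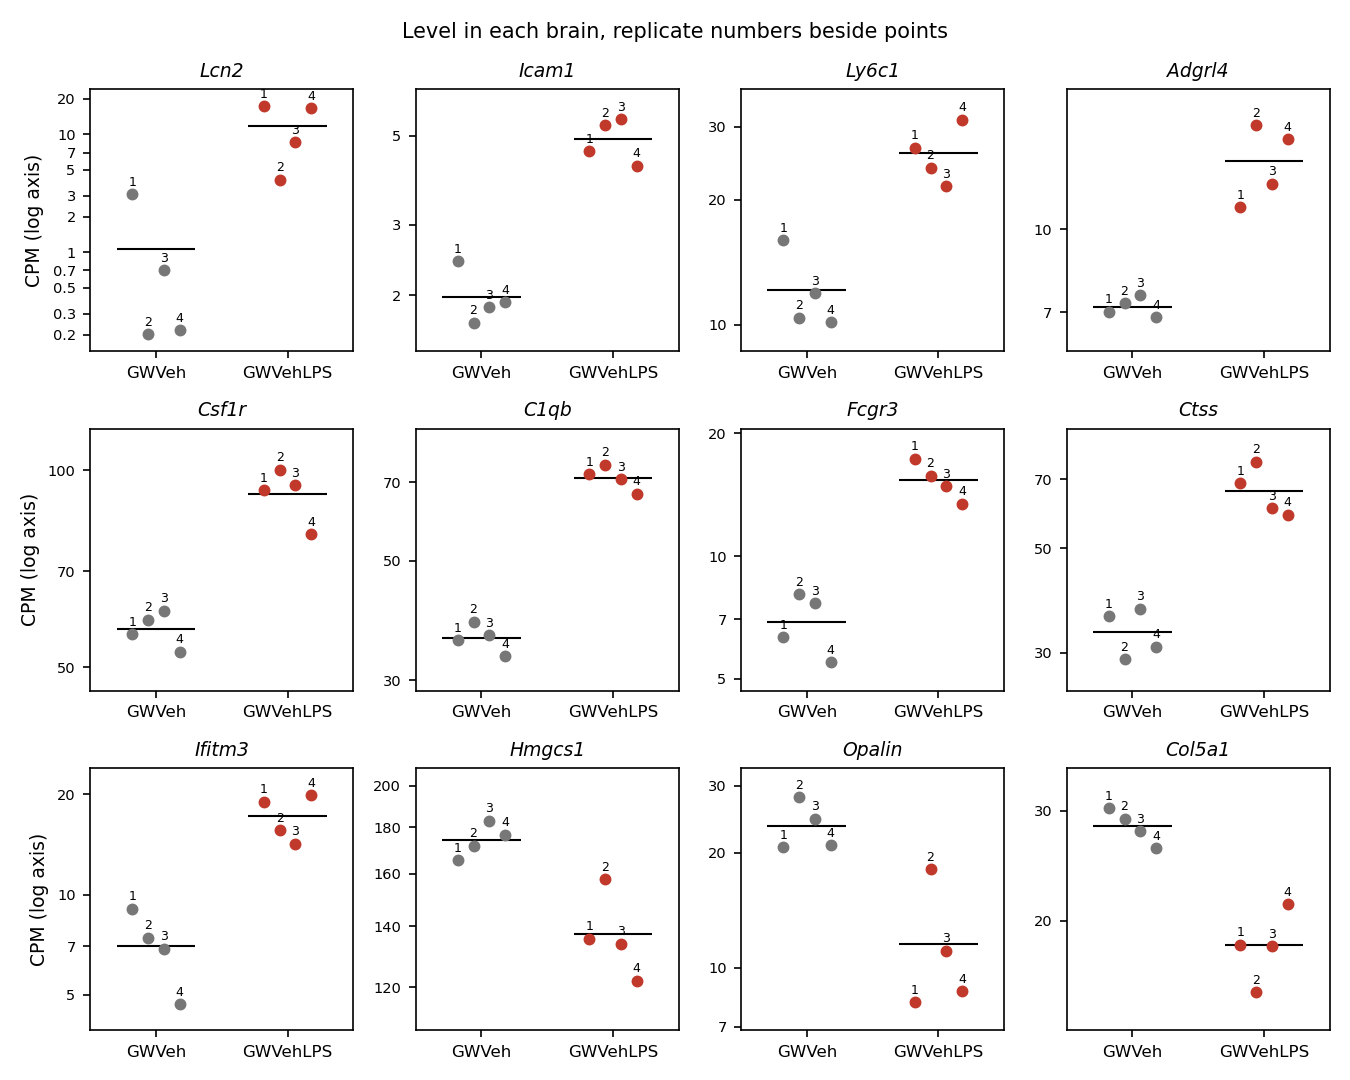
Level of 12 genes (CPM, logarithmic axes) in each of the 8 brains, with GWVeh in grey and GWVehLPS in red and the replicate number beside each point. Horizontal bars are group means (n = 4), and in each panel the 4 LPS points lie above the 4 PBS points or, for Hmgcs1, Opalin and Col5a1, below them.

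Microglial genes held more calls than any other list. Of 37 microglial identity genes 22 rose (59.5%, against 0.829% of all genes tested) and 0 fell. All 37 had a positive log2 fold change and the median was 0.56. Without GWVehLPS replicates 2 and 3, 11 rose. Csf1r, the receptor on which microglia depend for survival, had 56.1, 59.1, 60.9 and 52.8 CPM in GWVeh and 93.2, 100.2, 94.8 and 79.8 CPM in GWVehLPS (0.69 ± 0.08, adjusted p = 7.89e-06). The groups were far apart compared with their spread, and replicate 4 was again the lowest LPS brain. The fractalkine receptor Cx3cr1 (0.65 ± 0.10) and the marker Tmem119 (0.52 ± 0.08) moved by similar amounts, and Olfml3, a secreted protein of microglia (1.0 ± 0.11), the Fc receptor-like gene Fcrls (1.01 ± 0.14) and the membrane-shaping gene Bin2 (1.32 ± 0.20) by more. Median log2 ratios of the list to the GWVeh mean were 0.56, 0.56, 0.62 and 0.35 in LPS replicates 1 to 4. P2ry12, the ADP receptor that microglia lose on strong activation, did not pass the test: it had 10.8, 12.3, 13.04 and 15.4 CPM in GWVeh and 14.3, 19.6, 17.6 and 11.3 CPM in GWVehLPS, with overlapping groups (0.29 ± 0.16, adjusted p = 0.579). Spi1, which encodes the lineage factor PU.1 and was picked after its value was seen, rose by 0.98 ± 0.18 (adjusted p = 0.00211).

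Fc receptors for antibody and the ITAM adaptors that carry their signal held 13 rises and 0 falls among 36 members (median 0.79). The rises were 36.1% of members, against 0.829% of all genes tested, with 9 rising without replicates 2 and 3. Fcgr2b, Fcgr4, Fcgr3 and Fcer1g lie within 1 stretch of chromosome 1 (GRCm38 chr1:170958617-170976547, chr1:171018920-171029761, chr1:171051174-171064935 and chr1:171229572-171234365). Fcgr3, the low-affinity activating receptor, had 6.33, 8.08, 7.66 and 5.50 CPM in GWVeh and 17.3, 15.7, 14.8 and 13.4 CPM in GWVehLPS (1.16 ± 0.13, adjusted p = 8.48e-07). Every LPS brain was above every PBS brain, and within GWVehLPS the values spanned 13.4 to 17.3 CPM. The high-affinity receptor Fcgr1 rose by 1.26 ± 0.20 and the inhibitory receptor Fcgr2b by 1.06 ± 0.17. Fcgr4 had 10 counts over GWVeh and 101 over GWVehLPS (adjusted p = 0.00556). The common gamma chain Fcer1g (0.92 ± 0.16), the adaptor Tyrobp (DAP12, 0.87 ± 0.13), the kinase Lyn (0.71 ± 0.13) and the integrin chain Itgb2 (1.20 ± 0.16) moved in the same direction. Both activating and inhibitory receptors were among the rises.

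In the complement system the first component and the receptors rose, in 9 of 28 members (32.1%, against 0.829% of all genes tested), and 0 fell (median 0.37). Without replicates 2 and 3, 7 rose. The 3 chains of C1q, which start the classical pathway and tag synapses and debris for microglia, are neighbours on chromosome 4: C1qb (GRCm38 chr4:136880129-136886187), C1qc (chr4:136889804-136893065) and C1qa (chr4:136895917-136898803). C1qb had the smallest p of all genes, with 35.6, 38.6, 36.4 and 33.2 CPM in GWVeh and 72.6, 75.5, 70.9 and 66.6 CPM in GWVehLPS, a 1.99-fold difference with little spread in either group. C1qa rose 1.91-fold and C1qc 1.82-fold. The anaphylatoxin receptors C3ar1 (1.04 ± 0.22, adjusted p = 0.00869) and C5ar1 (1.5 ± 0.37, adjusted p = 0.0322) rose too. Of the complement genes named, C5ar1 lost its call without any 1 of 5 libraries (adjusted p up to 0.154), and C3ar1 without GWVehLPS replicates 2 and 3 (adjusted p = 0.163). Cd93, a lectin-like receptor of endothelium and myeloid cells that the list holds for its older name as a C1q receptor, had 3.62, 3.31, 2.44 and 3.67 CPM in GWVeh and 10.7, 4.68, 7.81 and 7.94 CPM in GWVehLPS. LPS replicate 2 was its lowest and replicate 1 its highest, and no LPS brain fell into the PBS range.

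Of 58 genes of phagocytosis and the lysosome 10 rose (17.2%, against 0.829% of all genes tested) and 0 fell (median 0.41), with 5 rising without replicates 2 and 3. Ctss, the cathepsin that prepares antigen for MHC class II, had 35.9, 29.0, 37.2 and 30.9 CPM in GWVeh and 68.8, 76.4, 60.8 and 59.0 CPM in GWVehLPS (0.99 ± 0.09, adjusted p = 3.36e-08). The same division between groups held for cathepsin C, Ctsc (1.08 ± 0.16), and cathepsin H, Ctsh (0.83 ± 0.13), with a smaller step for the more abundant cathepsin Z, Ctsz (0.43 ± 0.08). Mertk, a receptor for the uptake of dying cells, rose by 0.50 ± 0.09, and Ncf1, a subunit of the phagocyte NADPH oxidase, by 0.77 ± 0.16. The call of Ncf1 ended without GWVeh replicate 3 (adjusted p = 0.0511), and without GWVehLPS replicates 2 and 3 neither Ncf1 nor Ctsz passed (adjusted p = 0.129 and 0.0582). Of 13 genes of border-associated macrophages, which sit along vessels and in the meninges, 1 rose (7.69%), the scavenger receptor Stab1 (0.68 ± 0.12, adjusted p = 0.000703).

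Markers of blood leukocytes were read beside these myeloid results. Of 15 neutrophil genes 8 were tested, with a median of -0.22. Of these, 1 rose (12.5%, against 0.829% of all genes tested), Csf3r, which microglia also express. The summed level of the list was 8.58 to 22.3 CPM in GWVeh and 12.8 to 26.1 CPM in GWVehLPS. The neutrophil surface marker Ly6g had 0 counts in GWVeh and 1 in GWVehLPS. Of 11 monocyte genes 6 were tested and 0 passed, with summed levels of 118 to 128 CPM and 130 to 154 CPM. In this list Plac8 had 3 counts in GWVeh and 48 in GWVehLPS, and Ly6c2 had 25 and 19. Of 20 lymphocyte genes 7 were tested and 0 passed, and Cd3e had 16 and 13 counts. Plac8, Ly6c2, Ly6g and Cd3e were chosen after their values were seen.

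The promoters of the genes that rose were searched for the sites of 6 transcription factors, as a description. RefSeq promoters (GRCm38.p6, 250 bases before to 50 after the start) were matched by symbol to 13380 tested genes and to 123 of the 166 higher genes. The PU.1 site, AGGAAGT on either strand, was found in 9.99% of the tested genes' promoters, in 34 of the 123 and in 10 of 27 microglial identity genes. The NF-kB site GGGNNNTTCC was in 7.17% of all and in 17 of the 123. The 2 promoters below are shown because they belong to leading myeloid rises and hold such sites, in capitals: C1qb (chr4:136886151-136886450, minus strand) has a PU.1 match, and Ctss (chr3:95526536-95526835, plus strand) has a PU.1 match and an interferon-stimulated response element, GAAANNGAAA, which is in 3.62% of all promoters.
C1qb: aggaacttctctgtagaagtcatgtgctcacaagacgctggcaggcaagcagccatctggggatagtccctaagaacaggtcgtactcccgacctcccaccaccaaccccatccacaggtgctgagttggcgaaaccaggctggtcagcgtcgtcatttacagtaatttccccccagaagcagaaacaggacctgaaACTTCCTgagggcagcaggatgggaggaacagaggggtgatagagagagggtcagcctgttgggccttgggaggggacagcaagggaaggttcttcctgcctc
Ctss: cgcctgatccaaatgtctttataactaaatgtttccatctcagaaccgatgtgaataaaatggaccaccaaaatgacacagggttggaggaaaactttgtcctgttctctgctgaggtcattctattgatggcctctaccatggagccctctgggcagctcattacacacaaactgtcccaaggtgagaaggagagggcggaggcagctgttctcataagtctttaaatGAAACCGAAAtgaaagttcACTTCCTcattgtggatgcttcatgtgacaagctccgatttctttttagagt

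Interferon-stimulated genes formed the next group. These antiviral genes answer type I interferon through a receptor on the cell surface and the transcription factors that it activates. Of 63 tested, 10 rose (15.9%, against 0.829% of all genes tested) and 0 fell, 60 had a positive log2 fold change and the median was 0.54. In 26 every LPS library lay above every PBS library, which was the case for 3.50% of all genes tested. Without replicates 2 and 3, 4 rose. Ifitm3, which blocks viral entry and is strong in brain endothelium, had 9.08, 7.43, 6.87 and 4.67 CPM in GWVeh and 19.0, 15.6, 14.2 and 19.9 CPM in GWVehLPS (1.30 ± 0.17, adjusted p = 6.62e-05). The groups were separate, with LPS replicates 1 and 4 the highest. Irf7, the factor that amplifies interferon production, rose from 2.03 ± 0.441 to 5.61 ± 2.18 CPM, and its large SD in LPS brains came with 1 high value, 8.87 CPM in replicate 1. Rsad2 (viperin) rose by 1.15 ± 0.27, Ifit1, which binds viral RNA, by 1.0 ± 0.24, the RNA sensor RIG-I, Ddx58, by 0.65 ± 0.17 and tetherin, Bst2, by 0.86 ± 0.22. Oas1a (1.42 ± 0.37) and Ifi44 (1.55 ± 0.42) had larger estimates on lower counts and did not pass (adjusted p = 0.0555 and 0.0692). Ifitm3 kept its call whichever library was left out, whereas Irf7, Rsad2, Ifit1, Ddx58 and Bst2 each lost theirs without 4 or more of the 8 (adjusted p up to 0.0989, 0.109, 0.13, 0.202 and 0.168). Of 26 MHC genes 1 rose (3.85%, against 0.829% of all genes tested), B2m, the light chain of class I (0.47 ± 0.08). The class I heavy chain genes H2-K1 (0.50 ± 0.13, adjusted p = 0.0637) and H2-D1 (0.40 ± 0.11, adjusted p = 0.0952) did not pass although their groups did not overlap. H2-K1 and H2-D1 are similar in sequence and their counts may share reads.

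The interferon-stimulated response element was present in 26 of the 46 list promoters and in 7 of the 9 that belonged to called members. Ifit1 (chr19:34640639-34640938, plus strand), with 2 matches in capitals, and Rsad2 (chr12:26456403-26456702, minus strand), with 1, are shown as called members whose promoters hold the element.
Ifit1: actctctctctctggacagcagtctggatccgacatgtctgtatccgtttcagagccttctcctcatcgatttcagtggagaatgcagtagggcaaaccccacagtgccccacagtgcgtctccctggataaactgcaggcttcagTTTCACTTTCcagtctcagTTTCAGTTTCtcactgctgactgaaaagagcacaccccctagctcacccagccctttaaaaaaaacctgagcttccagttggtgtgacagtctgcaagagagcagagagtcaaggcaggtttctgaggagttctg
Rsad2: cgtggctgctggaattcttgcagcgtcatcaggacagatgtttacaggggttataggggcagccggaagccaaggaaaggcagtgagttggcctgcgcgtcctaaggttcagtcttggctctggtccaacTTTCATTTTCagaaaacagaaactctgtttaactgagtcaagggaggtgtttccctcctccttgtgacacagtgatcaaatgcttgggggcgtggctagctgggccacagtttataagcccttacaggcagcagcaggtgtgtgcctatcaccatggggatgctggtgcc

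Among glial lists outside microglia, the share of rises was above that of all genes tested (0.829%) for 3. These were reactive astrocytes, astrocyte identity, and the joint list of oligodendrocyte and myelin genes. Each of these shares rests on few genes, and 0.110% of all genes fell. Of 12 oligodendrocyte precursor genes 0 rose and 0 fell. Of 34 reactive astrocyte genes 3 rose (8.82%) and 0 fell (median 0.37). In edgeR 17 had an unadjusted p under 0.05, all higher, against 2081 of 20026 genes tested in either direction. The 3 were Lcn2, Cp and Fbln5, an elastic fibre protein (1.07 ± 0.19, with replicate 1 at 41.3 CPM and the other LPS brains at 21.9 to 25.6 CPM). Gfap, the astrocyte filament gene, was at 308 ± 48.9 and 396 ± 79.2 CPM with overlapping groups (adjusted p = 0.448). Of 24 astrocyte identity genes 2 rose (8.33%), the glutamate transporter Slc1a3 (0.25 ± 0.06) and the gap junction gene Gjb6 (0.31 ± 0.08), whose groups overlapped. Among 33 oligodendrocyte and myelin genes 1 rose (3.03%) and 2 fell (6.06%), with a median of -0.0199. The falls were Opalin and Il33, which is described with the cytokines. Apod, a lipid carrier, went from 212 ± 23.2 to 359 ± 95.1 CPM. Opalin, a membrane protein of mature oligodendrocytes, had 20.7, 28.0, 24.5 and 21.0 CPM in GWVeh and 8.10, 18.1, 11.1 and 8.69 CPM in GWVehLPS, the largest fall among genes with an average of at least 1 CPM and a symbol other than a clone or predicted-gene name (-1.03 ± 0.21, adjusted p = 0.0153). LPS replicate 2 was nearest to the PBS brains. Mbp, the main myelin protein gene, stood at 0.02 ± 0.13 and did not pass. Single libraries ended the calls of Slc1a3, Gjb6, Apod and Opalin (adjusted p up to 0.124, 0.215, 0.136 and 0.0564), but not that of Fbln5, which did not pass with only the 8 libraries in the fit (adjusted p = 0.0776).

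Matrix genes were divided. Of 62 collagen and matrix genes 3 rose (4.84%, against 0.829% of all genes tested) and 4 fell (6.45%, against 0.110%), with a median of -0.0182. Without replicates 2 and 3, 2 rose and 1 fell. Col5a1, a chain of fibrillar collagen V, had 30.3, 29.1, 27.8 and 26.2 CPM in GWVeh and 18.3, 15.4, 18.2 and 21.3 CPM in GWVehLPS, with no overlap and the smallest p of any fall (-0.63 ± 0.09, adjusted p = 0.00011). Col6a1 and Col6a2, chains of collagen VI that lie next to each other on chromosome 10 (GRCm38 chr10:76708792-76726168 and chr10:76595762-76623630), fell by similar amounts (-0.47 ± 0.10 and -0.43 ± 0.10), as did Ltbp4, which anchors latent TGF-beta (-0.47 ± 0.11). The rises were in Fbln5, Sparc, a matricellular protein (0.53 ± 0.11), and Fbln1 (0.47 ± 0.12). Col5a1 and Fbln5 kept their calls without each library in turn, and the other 5 lost theirs without at least 2 of the 8 (adjusted p up to 0.142 for Col6a2 and 0.219 for Fbln1).

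Lists overlap, and the glucocorticoid list shares its called members Lcn2, Mertk, Plin4 and Angptl4 with other lists described here. Of its 39 genes 12 rose (30.8%, against 0.829% of all genes tested) and 0 fell (median 0.31), and 12 rose without replicates 2 and 3. The most abundant was Fam107a, a stress-induced actin-binding protein gene of astrocytes and neurons, with 357, 279, 313 and 265 CPM in GWVeh and 571, 483, 461 and 571 CPM in GWVehLPS (0.78 ± 0.10, adjusted p = 0.000116). Tsc22d3 (GILZ), a mediator of glucocorticoid action, rose by 0.34 ± 0.06 with no overlap. Sult1a1, a sulfotransferase, had 6.70, 6.67, 4.22 and 5.90 CPM in GWVeh and 22.9, 9.13, 12.3 and 11.8 CPM in GWVehLPS, and the cell cycle inhibitor Cdkn1a rose by 0.56 ± 0.11. Sult1a1 did not pass with only the 8 libraries in the fit (adjusted p = 0.127). Fkbp5, the receptor's co-chaperone and a usual index of glucocorticoid exposure, was not called (0.26 ± 0.09, adjusted p = 0.22), and the metallothionein gene Mt1 was at 0.52 ± 0.13 (adjusted p = 0.0719). The glucocorticoid response element AGNACANNNTGTNC was in 0.232% of all promoters and in 1 of the 10 matched promoters of called members.

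Lipid genes moved in both directions. Plin4, a coat protein of lipid droplets that also belongs to the glucocorticoid list, had 4.86, 3.66, 2.57 and 3.06 CPM in GWVeh and 23.1, 6.18, 8.59 and 17.2 CPM in GWVehLPS. LPS replicates 1 and 4 were again the highest, and replicate 2 was close to the top of the PBS range (1.97 ± 0.33, adjusted p = 0.00412). The lipase inhibitor gene Angptl4 (1.11 ± 0.23) and Cpt1a, which brings fatty acids into mitochondria (0.30 ± 0.07), rose as well. In all, 4 of 42 lipid droplet and fatty acid genes were higher (9.52%, against 0.829% of all genes tested) and 0 lower. With only the 8 libraries in the fit Plin4 did not pass (adjusted p = 0.214). Angptl4 lost its call without GWVehLPS replicate 4 (adjusted p = 0.0531), and Cpt1a without any 1 of 3 libraries (adjusted p up to 0.0993) and without GWVehLPS replicates 2 and 3 (adjusted p = 0.202). Most calls among the 33 genes for making and taking up cholesterol were falls (median -0.18). Of these genes 4 fell (12.1%, against 0.110% of all genes tested) and 1 rose (3.03%, against 0.829%). In 12 every LPS brain was below every PBS brain, which was the case for 2.37% of all genes tested. Hmgcs1, an early enzyme of cholesterol synthesis, had 166, 172, 183 and 177 CPM in GWVeh and 136, 158, 134 and 122 CPM in GWVehLPS (-0.34 ± 0.08, adjusted p = 0.0186). The genes of the later enzymes Msmo1 (-0.31 ± 0.07) and Lss (-0.28 ± 0.07) fell by similar amounts, and Insig1, the sterol sensor's anchor, did not pass (-0.21 ± 0.06, adjusted p = 0.0638). The member that rose was Abcg1, which exports cholesterol (0.27 ± 0.07). Without replicates 2 and 3, 2 fell and 0 rose. The calls of Hmgcs1, Msmo1, Lss and Abcg1 were each lost without at least 2 single libraries (adjusted p up to 0.0996, 0.0825, 0.154 and 0.224), with fold changes of the same sign. The sterol response element TCACNCCAC was in 1.41% of all promoters and in 1 of the 24 matched list promoters, that of Hmgcs1 (chr13:119690101-119690400, plus strand), shown with the match in capitals.
Hmgcs1: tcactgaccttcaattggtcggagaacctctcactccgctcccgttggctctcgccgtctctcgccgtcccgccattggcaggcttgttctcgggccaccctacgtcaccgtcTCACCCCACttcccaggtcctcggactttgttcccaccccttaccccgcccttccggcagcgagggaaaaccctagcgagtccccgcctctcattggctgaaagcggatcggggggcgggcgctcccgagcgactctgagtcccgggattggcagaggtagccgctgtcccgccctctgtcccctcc

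In the unfolded protein response 4 of 32 genes rose (12.5%, against 0.829% of all genes tested) and 0 fell (median 0.13). The rises were the endoplasmic reticulum proteins Pdia4 (0.29 ± 0.07), Manf (0.30 ± 0.07), Sdf2l1 (0.57 ± 0.14) and Dnajc3 (0.24 ± 0.06). These calls were lost without 5 to 7 of the 8 libraries (adjusted p up to 0.198). Rbm3, a cold-induced RNA-binding protein gene placed in the clock list, fell from 55.9 ± 5.17 to 41.9 ± 5.84 CPM and was its single call among 24 (adjusted p = 0.00818, and 0.0531 without GWVehLPS replicate 4). Among neuronal genes, 0 of 32 synaptic and 0 of 22 immediate-early genes passed in either direction in edgeR. An unadjusted p under 0.05 was found for 4 and 2 of them, all lower with LPS. These shares were near that of all genes tested in either direction (2081 of 20026). In 4 of the 32 synaptic and 0 of the 22 immediate-early genes every LPS brain was below every PBS brain. This was the case for 2.37% of all genes tested. Over the 32 synaptic genes the median was 0.0063, and 17 had a positive log2 fold change. Of the 24 olfactory bulb genes 0 passed and 3 had an unadjusted p under 0.05, with a median of 0.22, and of 20 cerebellar genes 0 passed, with a median of 0.29 and summed levels of 2456 to 3383 CPM in GWVeh and 2907 to 3741 CPM in GWVehLPS. Red blood cell genes had a median of -1.06, with 0 of 8 called and 5 at an unadjusted p under 0.05. GWVeh replicate 1 held the highest Hbb-bs, at 391 CPM, against 65.3 to 126 CPM in the other PBS brains, and is given here after its values were seen.

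**Figure D3:**
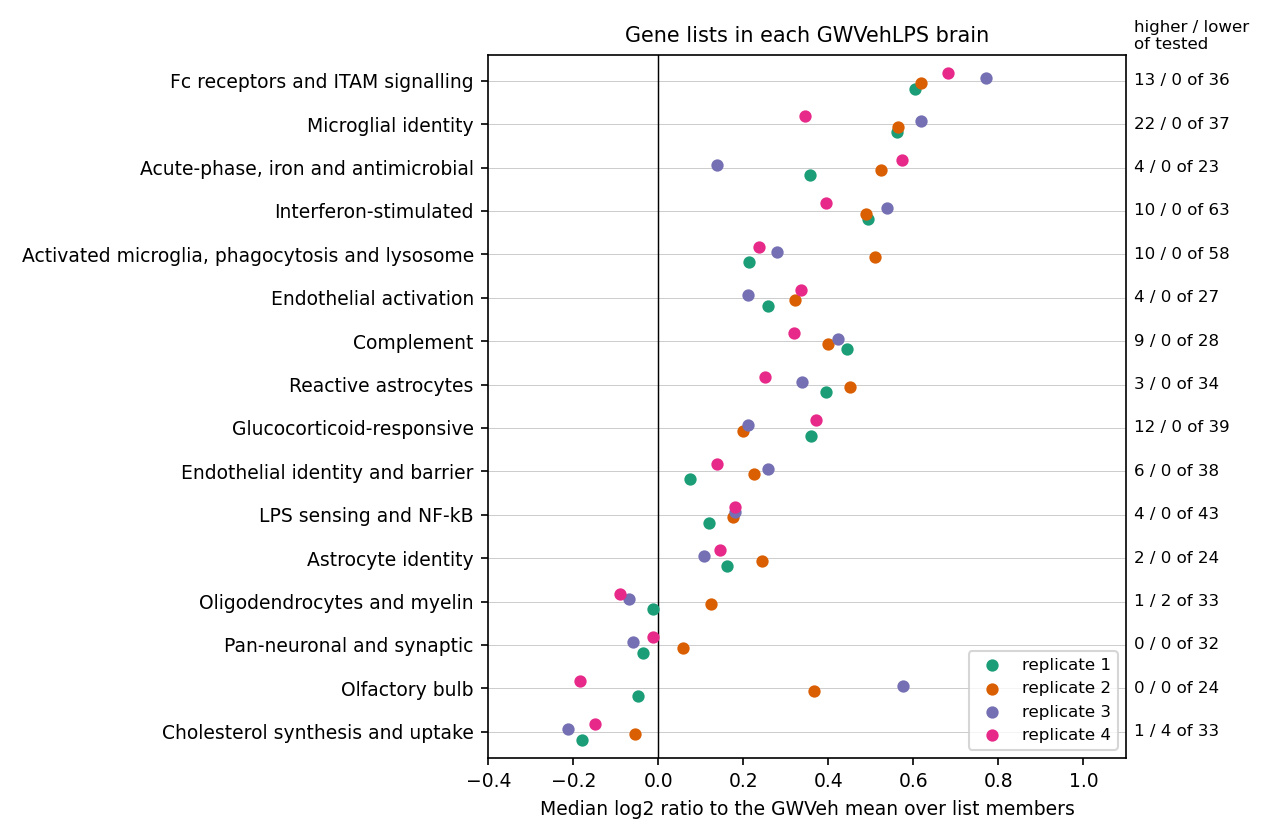
Median log2 ratio to the GWVeh mean over the members of 16 gene lists (horizontal axis) in each GWVehLPS library, with 1 point per library and the replicate number given by colour. Numbers at the right are the members higher and lower at an adjusted p under 0.05 and the members tested; microglial, Fc receptor and interferon lists lie to the right of 0 in all 4 brains and cholesterol genes to the left.

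The same genes were then read in the other arms. In unexposed mice, LPS raised 83 genes (0.414%) and lowered 16 (0.0799%), and 7 of the 24 olfactory bulb genes were among the rises. Without CtrlVehLPS replicate 1 the counts were 56 and 6, and with bulb and cerebellar marker levels as covariates 25 and 2, both chosen after seeing the data. Bulb content and LPS cannot be told apart in this arm. The genes called in exposed vehicle mice mostly had the same direction there: 158 of the 166 had the same sign, with a median of 0.46, and 32 were called (162, 0.53 and 31 without CtrlVehLPS replicate 1, and 157, 0.53 and 16 with the covariates). In exposed mice given cannabidiol LPS raised 1 gene (0.00499%) and lowered 0, 1646 having an unadjusted p under 0.05, and 139 of the 166 had the same sign with a median of 0.17. The 166 were chosen on their difference in exposed vehicle mice, so these medians are no test of a difference between arms, and each response was compared gene by gene in the same fit. No library is shared between the responses.

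Against unexposed mice, 0 genes passed the test of the difference, 1688 having an unadjusted p under 0.05. DESeq2 called 28, of which 8 had a higher and 20 a lower log2 fold change in exposed than in unexposed mice. The count was 0 without CtrlVehLPS replicate 1 and 0 with the marker covariates. It was 1 without CtrlVeh replicate 2 or GWVehLPS replicate 2 and 3 without CtrlVehLPS replicate 3. The smallest p belonged to Adgrl4, Cntnap3 and Cpne6. Adgrl4 had a response of 0.90 ± 0.12 in exposed vehicle mice and -0.02 ± 0.14 in unexposed mice, a difference of 0.92 ± 0.18 (adjusted p = 0.247). For Cntnap3 the difference was -1.0 ± 0.21 and for Cpne6 it was -0.44 ± 0.10, with the same adjusted p. Several responses were nearly equal in size: C1qb differed by 0.05 ± 0.13, C1qc by -0.03 ± 0.14 and Csf1r by -0.02 ± 0.13. Larger but uncertain differences stood at Icam1 (0.87 ± 0.32), Fcgr3 (0.60 ± 0.20) and Rsad2 (1.07 ± 0.41, adjusted p = 0.483).

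Against exposed mice given cannabidiol, 9 genes differed (0.0449%), and in all 9 the response was larger in vehicle mice. They were the Fc receptor genes Fcgr3 (difference 1.17 ± 0.18, adjusted p = 0.00612) and Fcgr4 (4.69 ± 0.89, adjusted p = 0.0293), the endothelial genes Adgrl4 (1.02 ± 0.17, adjusted p = 0.00734), Icam1 (1.78 ± 0.30, adjusted p = 0.00904) and Cd93 (1.51 ± 0.29, adjusted p = 0.0363), the microglial genes C1qa (0.66 ± 0.12, adjusted p = 0.0293) and Olfml3 (0.85 ± 0.16, adjusted p = 0.0293), and Ifitm3 and Pglyrp1 (1.29 ± 0.25 and 1.39 ± 0.28). Fcgr3 had 9.22, 7.81, 6.87 and 8.80 CPM in the 4 GWCBD30 brains and 8.19, 7.71, 9.35 and 6.995 CPM in the 4 GWCBD30LPS brains, a log2 fold change of -0.01 ± 0.13 against 1.16 ± 0.13 in vehicle mice. Icam1 had 3.37, 2.40, 1.65 and 1.87 CPM in GWCBD30 and 1.72, 1.51, 1.60 and 1.89 CPM in GWCBD30LPS. In both genes the cannabidiol groups overlapped, while the vehicle groups did not. Tsc22d3, the 1 gene that LPS raised in cannabidiol mice (0.38 ± 0.06, adjusted p = 0.0167), had nearly the same response in vehicle mice (0.34 ± 0.06; difference -0.05 ± 0.09). The number of differences rested on single libraries. It was 3, 5 and 4 without GWVeh replicates 2 to 4, and 3 and 17 without GWVehLPS replicates 1 and 2. Of these 17, 4 had a lower log2 fold change in vehicle mice. The number was 2 and 3 without GWCBD30 replicates 1 and 2, and 14 and 3 without GWCBD30LPS replicates 2 and 4.

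**Figure D4:**
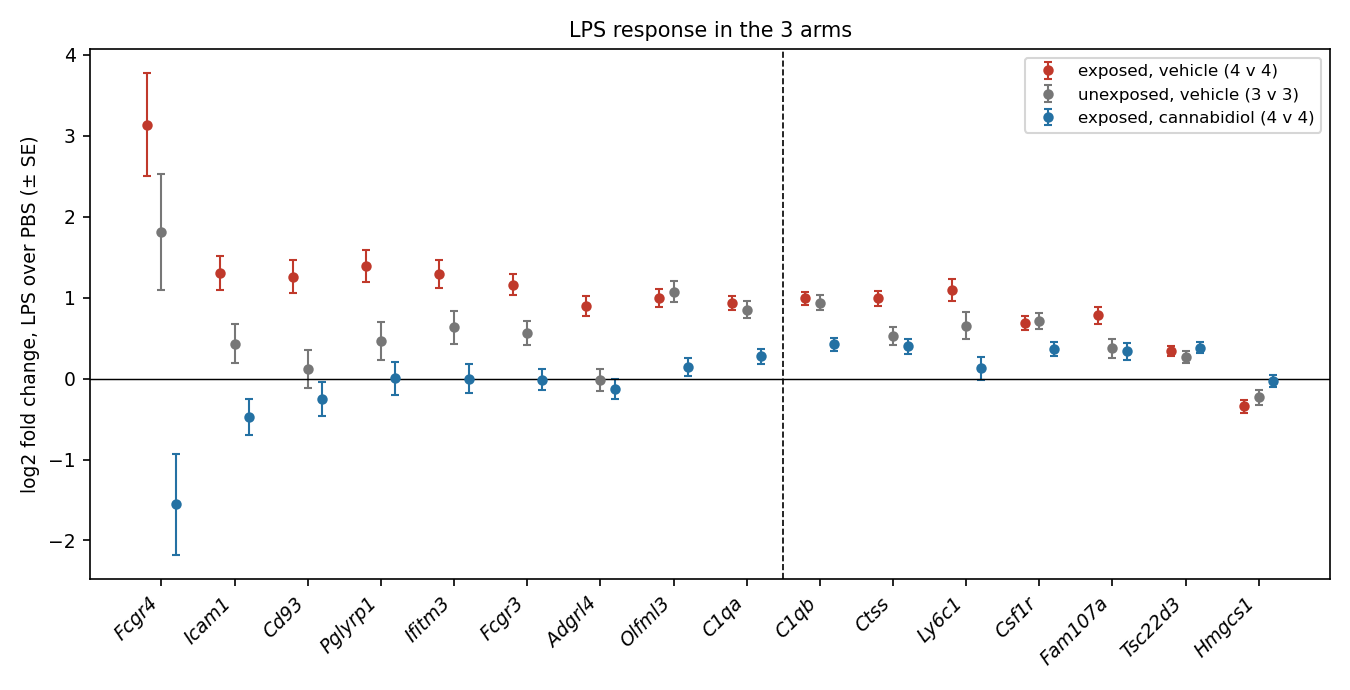
LPS response (log2 fold change, LPS over PBS, vertical axis) of 16 genes in exposed vehicle mice (red, 4 against 4), unexposed mice (grey, 3 against 3) and exposed cannabidiol mice (blue, 4 against 4); bars are standard errors. The 9 genes left of the dashed line passed the test of the difference between vehicle and cannabidiol mice and the 7 to the right did not.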

How the data were processed

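Whole-brain RNA with an RNA integrity number of at least 8.5 was made into poly(A) stranded libraries and sequenced as 150-base read pairs, per the labels' protocols. The authors deposited 1 table of read counts per gene for 22 libraries, 1 per mouse, which are whole numbers that had not been normalized. Reads were aligned to GRCm38 (mm10), per the submitters' processing notes. Which aligner, counter, strand setting and annotation were used is not given in the sources used here, so overlapping, antisense and near-identical genes (Saa3, Ly6c1 and class I MHC genes among them) may share counts. The table held 0 columns of other samples. The reads carry no molecular identifiers, and intervals and floors cover counting error only.

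One edgeR model (version 4.0.16, R 4.3.3) covered all 22 libraries (quasi-likelihood F test, 6 group means, TMM scaling, default filter on low counts, 20026 of 56748 genes tested), with Benjamini-Hochberg adjustment over all genes tested. The difference between arms was tested as a contrast in the same fit. CPM values use TMM-scaled library sizes, and each log2 fold change is given with its standard error. Positions are from GENCODE M21 (GRCm38), which held 52125 of the IDs and all 188 called genes. Promoters are from RefSeq (GRCm38.p6), searched on both strands. On simulated counts for GWVehLPS against GWVeh (19649 genes), 73.1%, 86.6% and 97.0% of genes changed 1.5-, 2- and 4-fold were recovered, and 4.47% of calls were false. The changed genes were drawn above a minimum expected count, with as many rises as falls and independent noise in each library. The recovery rates therefore do not cover genes near the floor. Neither rate covers regional differences between brains, which were not simulated.

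The gene lists and the genes described were chosen with earlier results of these data known. Named genes were the 25 largest rises and 15 largest falls with an average of at least 1 CPM, up to 10 called and 3 uncalled members of each list, a set of defining genes, the 10 smallest p-values in each direction and the leading differences between arms. Not every gene the rule allows is described, and some results are not reported here. Alternatives were RLE and upper-quartile scaling, other filters, DESeq2 1.42.0, limma 3.58.1 voom with quality weights, only the compared groups, the replicate number as a block, an adjusted p of 0.1, regional marker levels as covariates and leaving out libraries.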

Additional observations from a re-analysis of the deposited data

Results flagged for a closer look

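In 9 of the 230 sets of 4 values that the named genes form in GWVeh and GWVehLPS (3.91%), the highest or the lowest brain stood apart from the other 3, its gap to the nearest of them exceeding Dixon's 95% critical value of 0.829 of the range. Chance gives about 1 set in 20. Most of these values lay in the LPS group. The C5a receptor gene C5ar1 was low in GWVehLPS replicate 3, at 1.29 CPM against 1.92 to 2.01 CPM in the other LPS brains. Irf7, the interferon regulatory factor, was high in GWVehLPS replicate 1 (8.87 CPM against 4.25 to 4.74 CPM). Tyrobp, the ITAM adaptor of microglia, was high in GWVehLPS replicate 2 (13.4 CPM against 9.65 to 10.0 CPM). Fam111a, a restriction factor gene, was low in the same brain (2.40 CPM against 2.88 to 2.94 CPM). In GWVehLPS replicate 4, 3 genes were high: the selectin Selp (1.01 CPM against 0.551 to 0.597 CPM), the antiviral gene Oas1a (2.24 CPM against 1.56 to 1.64 CPM) and the globin gene Hbb-bs (116 CPM against 61.7 to 70.2 CPM). In GWVeh replicate 4, the cholesterol enzyme gene Lss was high (54.0 CPM against 47.5 to 48.3 CPM) and the endoplasmic reticulum gene Pdia4 was low (27.0 CPM against 31.7 to 32.5 CPM).

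The LPS response of 9 genes differed between exposed vehicle mice and exposed cannabidiol mice by a test of the difference itself (edgeR's quasi-likelihood test, adjusted p under 0.05), each with the larger log2 fold change in vehicle mice. The differences on the log2 scale were 4.69 for Fcgr4, 1.17 for Fcgr3, 1.78 for Icam1, 1.51 for Cd93, 1.39 for Pglyrp1, 1.29 for Ifitm3, 1.02 for Adgrl4, 0.85 for Olfml3 and 0.66 for C1qa. Fc receptors, vessel genes and microglial genes were thus all among them.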

How the results depend on the processing

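In every alternative run the response held more rises than falls. The 166 rises became 289 with no filter on low counts and 252 with DESeq2, and were between 111 and 165 when 1 library at a time was left out. The other alternatives gave 115 to 241, and DESeq2 and limma voom called 161 and 157 of the 166. The 22 falls became 70 with no filter, 68 with DESeq2, 79 with limma voom, 72 at an adjusted p under 0.1 and 14 with only the compared groups in the fit, and were between 8 and 38 with 1 library left out. The difference from unexposed mice, 0 genes, became 82 with no filter and 28 with DESeq2. With no filter 43 had a higher and 39 a lower log2 fold change in exposed mice, and with DESeq2 8 and 20. The count was 1 without GWVehLPS replicates 2 and 3. It was 2 when CtrlVehLPS replicate 1, with few cerebellar and many pancreatic transcripts, was left out as well (an alternative chosen after seeing the data). With 1 library left out it was between 0 and 3. The 9 differences from cannabidiol mice became 37 with no filter, 24 with DESeq2, 42 with limma voom and 21 at an adjusted p under 0.1. They became 22 with olfactory bulb and cerebellar marker levels as covariates and 18 without GWVehLPS replicates 2 and 3. With 1 library left out they were between 2 and 17. Not all had the larger log2 fold change in vehicle mice. It was lower there in 4 of the 37, 8 of the 42, 1 of the 22 and 4 of the 18, and in 0 of the 24 and 0 of the 21. DESeq2 and limma voom called all 9, and 7 were called without GWVehLPS replicates 2 and 3. The causes of these shifts were not tested.

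Same-numbered GWVeh and GWVehLPS libraries did not clearly deviate together (correlations of deviations -0.0407, 0.0627, 0.00129 and 0.0560). Differently numbered libraries had -0.0883 to 0.0710. The main fit treated the libraries as unpaired, although a check on 4 pairs cannot exclude pairing. With the replicate number as a block, 189 genes rose, 34 fell, 0 differed from unexposed and 15 from cannabidiol mice. Of the 94 called genes named, 40 kept their call in every alternative, and 12 of the 21 named genes without a call passed in at least 1. Fcgr4, Saa3, Sele and Selp kept their calls in the alternatives in which they were tested. They had few counts in GWVeh and pass the filter on low counts only through libraries where they are high. Their kept calls are therefore no support for the rises. The sign of Mbp, 0.019 on the log2 scale and not called, turned without GWVehLPS replicates 2 and 3 (-0.061), with the covariates (-0.027) and with limma voom (-0.085), and ranged from -0.074 to 0.11 with 1 library left out. No other named gene changed sign. Among cytokine and chemokine genes 20 of 41 were too low at this depth to be tested.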

Other observations

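Of the 166 genes that rose, 109 were members of at least 1 list, and of the 22 that fell 12 were. Among the rises outside the lists were further genes of phagocytes and antigen handling. Ifi30, which encodes the lysosomal thiol reductase GILT that unfolds antigen, had 2.48, 1.40, 1.82 and 2.23 CPM in GWVeh and 5.94, 5.43, 4.87 and 4.48 CPM in GWVehLPS (1.38 ± 0.23, adjusted p = 0.000409 in edgeR's quasi-likelihood test). Myo1f, a myosin of leukocytes and microglia, rose by 1.25 ± 0.18 and had separate groups, 2.38, 2.06, 2.90 and 1.88 CPM against 4.33, 6.69, 6.06 and 5.01 CPM. Tnfaip8l2 (TIPE2), which restrains innate immune signalling, rose by 1.41 ± 0.26 (adjusted p = 0.00162, and 0.0806 without GWVehLPS replicates 2 and 3). Gna15, a G protein subunit of blood and immune cells, rose by 1.30 ± 0.30, and Fam111a, a protease that restricts viral replication, by 1.26 ± 0.26. The 4 LPS values of Fam111a lay between 2.40 and 2.94 CPM. Gna15 lost its call without any 1 of 5 libraries, without GWVehLPS replicates 2 and 3 and with the regional covariates (adjusted p up to 0.338). Fam111a lost its call without GWVeh replicate 4 (adjusted p = 0.0556).

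Among the falls outside the lists, Hrk, a pro-apoptotic BH3 protein gene of neurons, went from 43.0, 46.1, 48.1 and 45.3 CPM in GWVeh to 39.5, 37.6, 33.0 and 34.0 CPM in GWVehLPS (-0.34 ± 0.08, adjusted p = 0.0219). Its call was lost without any 1 of 5 libraries and without GWVehLPS replicates 2 and 3 (adjusted p up to 0.21). Nnt encodes the mitochondrial transhydrogenase that makes NADPH, and C57BL/6J mice are known to carry a deletion within this gene. It had 0.688, 0.803, 1.03 and 1.14 CPM in GWVeh and 0.384, 0.0393, 0.184 and 0.267 CPM in GWVehLPS, so that every LPS brain was lower (-2.03 ± 0.45, adjusted p = 0.0137). All its values in these 8 brains were near or below 1 CPM. The call was lost without GWVeh replicate 4 or GWVehLPS replicate 2 (adjusted p = 0.0571 in both), with only the 8 libraries in the fit, and without GWVehLPS replicates 2 and 3 (adjusted p = 0.276). Its response was -0.72 ± 0.51 in unexposed mice and -0.49 ± 0.39 in cannabidiol mice, neither past the threshold, and the differences from exposed vehicle mice did not pass either (adjusted p = 0.628 and 0.75).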
